A study of Homo sapiens with 3 samples.

Results

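The cytosolic ribosomal proteins form the protein part of the 60S (large) and 40S (small) subunits of the ribosome that translates nuclear-encoded mRNA. Their genes were taken by symbol: every protein-coding mRNA row (RefSeq accession starting with NM) of the authors' deposited table whose symbol starts with RPL or RPS, without the RPS6 kinases, RPS19BP1 and pseudogenes. The choice gave 131 NM rows of 84 genes, out of 17868 NM rows of 11487 coding genes that could be named, with 51 genes for the large and 33 for the small subunit. Among the 84 are 77 canonical ribosomal protein genes, 5 paralogs (RPL7L1, RPL22L1, RPL26L1, RPL36AL and RPS27L) and 2 readthrough genes that join RPL36A to HNRNPH2 and RPS10 to NUDT3. The canonical genes are the whole canonical list that was looked for. The paralogs RPL3L, RPL10L and RPL39L were not analysed here.

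The libraries were total RNA of SW480, a human colon adenocarcinoma line. One group was transduced with an shRNA against RBMS1 (shRBMS1, 1 library) and the other with control shRNA (shControl, 2 libraries), both taken at 48 hours. RBMS1 is an RNA-binding protein, and the comparison addresses which transcripts differ in level when it is depleted. A single hairpin against RBMS1 was used, and the control hairpin of each shControl library is not named in the sources used here.

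The deposited values are log2 fold changes per transcript, shRBMS1 over shControl, and a gene's value below is the median of its NM rows in the authors' deposited table. Values per library were not analysed here, so no error, test or depth stands beside any value, and every comparison is a description of these 3 libraries. In bulk RNA, less RNA per cell and fewer cells of a kind cannot be told apart. Neither the base nor the direction stands in the file header: base 2 comes from the spacing of repeated values, and the direction was set so that RBMS1 lies below 0. RBMS1 itself stood at −1.49 (35.6% of control), with −1.62 and −1.36 for its NM rows in the authors' deposited table. Of 10 colon epithelium markers, 8 had a row, with gene values of −2.33 to 0.10, against 2 of 5 leukocyte markers (the macrophage gene CD68 and the lysozyme gene LYZ, between −0.68 and −0.54), 0 of 5 fibroblast markers and 0 of 5 endothelial markers. The table holds differences and no levels, so a row says only that the transcript was listed.

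Ribosomal protein mRNAs are among the most abundant of a growing cell, and most carry a 5′ terminal oligopyrimidine (TOP) tract, a C followed by an uninterrupted run of pyrimidines at the cap. Through the TOP tract the translation of these mRNAs is controlled together by mTOR and the cap-binding protein LARP1. Each ribosome takes 1 copy of nearly every ribosomal protein, and unassembled copies are degraded. Ribosome production is often raised in colorectal cancer.

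To show the tract, the 50 bases around the annotated start (30 before it and 20 from it on, RefSeq, GRCh38.p14) follow for 8 genes. These are RPLP1, RPS16 and RPL28, the canonical genes with the lowest values in the table, and RPL39, RPL22 and RPS23, with high values. RPLP0 and RPS6, the other genes shown, lie between the lower and upper quartiles of the set. Capitals mark the pyrimidines that run on from a C at the annotated start. In all of these 8 genes but RPLP1, pyrimidines also stand just before the start and are left in lower case. The windows lie at chr15:69452788-69452837 (plus strand) for RPLP1, chr19:39435930-39435979 (minus) for RPS16, chr19:55385902-55385951 (plus) for RPL28, chrX:119791611-119791660 (minus) for RPL39, chr1:6199576-6199625 (minus) for RPL22, chr5:82278335-82278384 (minus) for RPS23, chr12:120201092-120201141 (minus) for RPLP0 and chr9:19380217-19380266 (minus) for RPS6.
RPLP1: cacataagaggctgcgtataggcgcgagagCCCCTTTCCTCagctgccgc
RPS16: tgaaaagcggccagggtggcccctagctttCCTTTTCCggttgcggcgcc
RPL28: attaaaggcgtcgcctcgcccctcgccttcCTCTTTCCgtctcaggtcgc
RPL39: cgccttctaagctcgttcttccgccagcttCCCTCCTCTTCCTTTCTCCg
RPL22: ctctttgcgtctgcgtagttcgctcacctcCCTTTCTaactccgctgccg
RPS23: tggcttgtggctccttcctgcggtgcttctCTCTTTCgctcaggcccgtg
RPLP0: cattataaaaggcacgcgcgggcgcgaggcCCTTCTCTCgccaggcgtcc
RPS6: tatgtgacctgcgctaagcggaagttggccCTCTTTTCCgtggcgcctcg

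Of the 84 genes, 68 had an annotated start in the RefSeq table, and 48 of these 68 (70.6%) had a C followed by at least 4 pyrimidines exactly at a start. Among 9459 other coding genes the share was 7.18%. Only the strand with the same sequence as the mRNA was searched. Within 5 bases of a start the tract was found in 56 of 68 ribosomal protein genes (82.4%) and in 29.1% of the other coding genes. Counted from that C, those 56 tracts ran for 5 to 19 bases with a median of 8, and the longest was that of RPL39. Genes with no tract within 5 bases of a listed start were RPL6, RPL9, RPL15, RPL17, RPL27, RPS4X, RPS15, RPS26, RPS29 and the paralogs RPL7L1, RPL26L1 and RPS27L. Genes with and without the tract had nearly the same median. The 48 genes with it at the start had a median log2 fold change of 0.12 with 42 above 0, and the 20 without it a median of 0.11 with 17 above 0. Among the other coding genes the 679 with a tract at the start had a median of 0.01, and the 8780 without it a median of 0.0051.

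Ribosomal protein genes lay in a narrow band just above 0. By the medians taken from the authors' deposited table, 72 of the 84 (85.7%) lay above 0, against 50.4% of all 11487 coding genes. Their median log2 fold change was 0.12, which is 108.8% of control, against 0.0034 for all coding genes. The quartiles were 0.06 and 0.22 for ribosomal protein genes, against −0.26 and 0.22 for the 11403 other coding genes, so the upper quartiles of both sets nearly coincided and the lower ones did not.

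The band held few genes far from 0. At or above 0.25 were 19 ribosomal protein genes (22.6%), close to the 21.9% of all coding genes that reached it. At or below −0.25 were 5 (5.95%), against 25.7% of all coding genes. None of the 84 was at or above 1, where 3.62% of all coding genes lay, and RPLP1 alone was at or below −1, where 4.06% lay. Within 0.5 of 0 were 94.0% of the ribosomal protein genes, against 77.3% of the other coding genes. Several sets of translation genes described below came near this share. It was 89.6% for mitochondrial ribosomal proteins, 92.1% for initiation factors and 93.8% for ribosomal protein chaperones, but 81.8% for elongation factors.

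**Figure D1:**
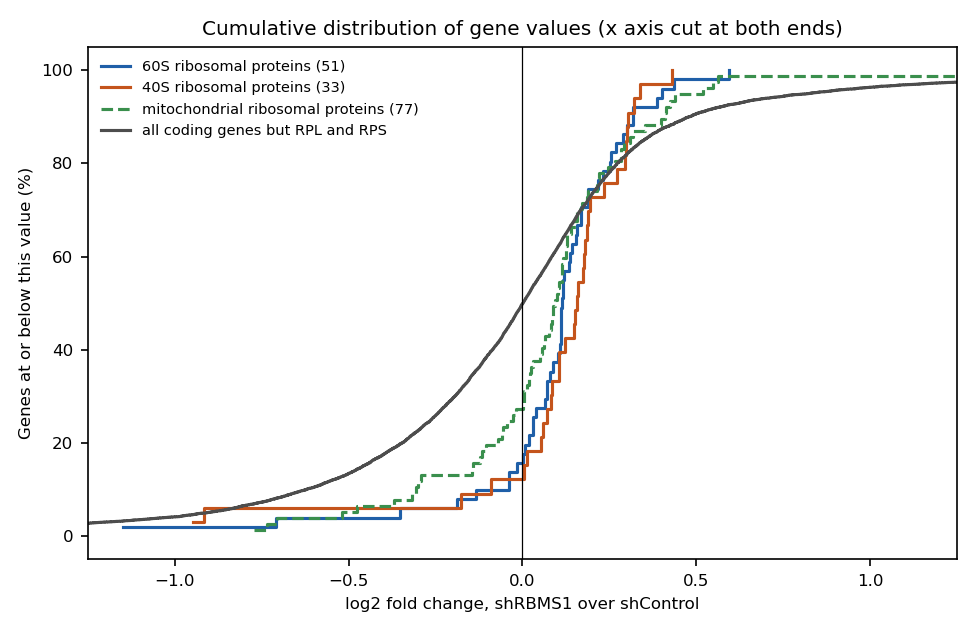
Percentage of genes at or below each log2 fold change (shRBMS1 over shControl, x axis, cut at both ends) for 51 large subunit genes, 33 small subunit genes, 77 mitochondrial ribosomal protein genes (dashed) and the 11403 coding genes outside the RPL and RPS set, which include the mitochondrial ones. The cytosolic curves climb steeply between 0 and 0.25, where 53 of the 84 genes lie, and meet the curve of the other coding genes near an upper quartile of 0.22.

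Large and small subunits differed little. The 51 large subunit genes had a median of 0.11 with quartiles of 0.04 and 0.20, and the 33 small subunit genes a median of 0.16 with quartiles of 0.07 and 0.23. Above 0 were 43 of 51 large subunit genes (84.3%) and 29 of 33 small subunit genes (87.9%). Counts above 0 within parts of the set, here and below, are to be read against the 85.7% of all 84 genes. At or above 0.25 were 11 large and 8 small subunit genes, and at or below −0.25 were 3 and 2. The difference of the medians, large minus small, was −0.04, which is smaller than the distance between the quartiles of either subunit. When each gene was given by its NM row closest to 0, the difference was 0.0041 and so had the other sign.

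**Figure D2:**
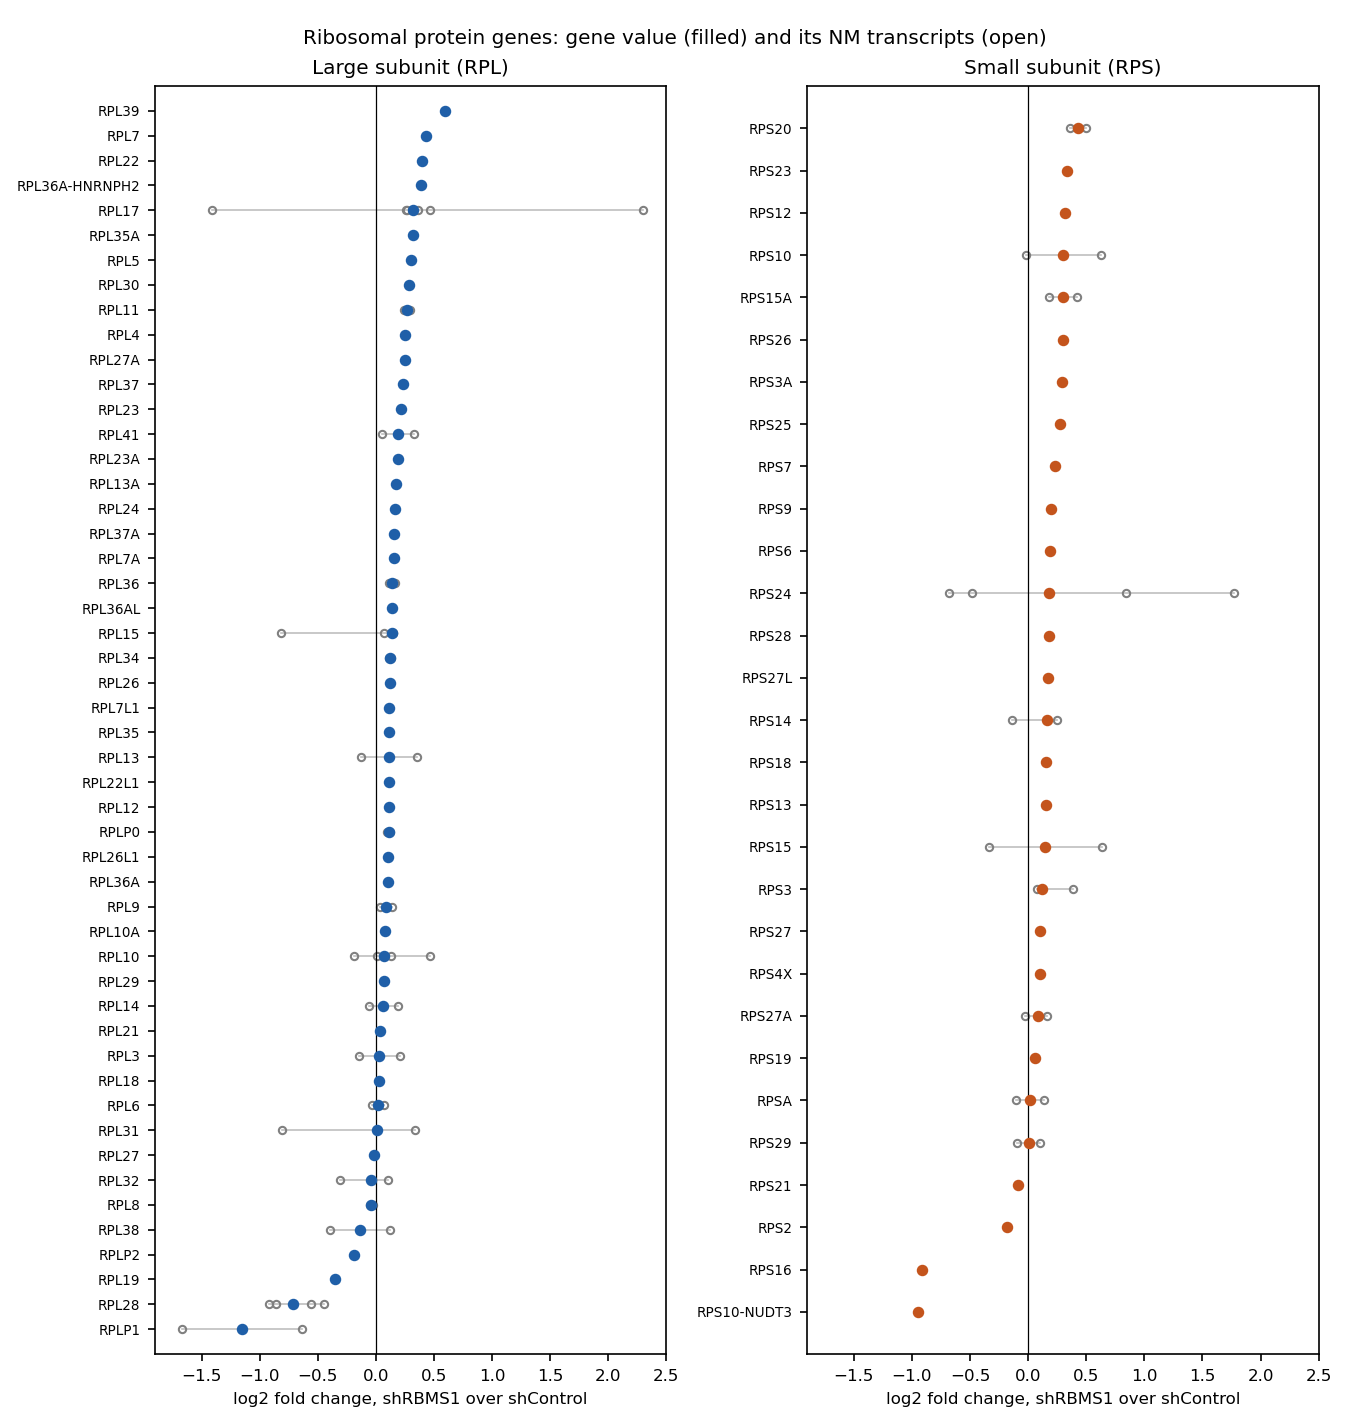
Log2 fold change (shRBMS1 over shControl) of 50 large subunit genes (left) and 29 small subunit genes (right), sorted by value. Filled points are gene values, open points are the NM rows of genes that have several, and grey lines span them. Most filled points sit between 0 and 0.4, RPLP1, RPL28, RPS16 and the readthrough gene RPS10-NUDT3 sit below −0.7, and the NM rows of RPL17 and RPS24 spread widest.

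Lowest of the 84 was RPLP1, on chromosome 15 at 69452818 to 69456205 (hg38), which encodes an acidic protein of the lateral stalk that recruits translation factors to the 60S subunit. Its gene value was −1.15, or 45.0% of control, at percentile 3.14 of all coding genes. Both of its NM rows lay below 0 in the authors' deposited table, NM_001003 with 114 residues at −0.63 and NM_213725 with 89 residues at −1.67. The other stalk proteins stood apart from it by the medians from the authors' deposited table. RPLP2, which pairs with RPLP1, was at −0.19. RPLP0, which anchors those pairs, and RPL12, at the base of the stalk, were both at 0.11. The 4 stalk genes had a median of −0.04 with 2 above 0.

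RPL5 and RPL11 bind 5S rRNA and, outside the ribosome, bind and inhibit the p53 ubiquitin ligase MDM2. They lay close together, at 0.30 and 0.27 by the medians from the authors' deposited table, and the NM rows of RPL11 were at 0.24 and 0.30 there. Around the tunnel through which the new peptide leaves, 7 of 8 genes lay above 0, with a median of 0.15. RPL39, a very small protein in the tunnel wall, was the highest of all 84 in the authors' deposited table, at 0.59 or 150.8% of control. It has 1 NM row and lies on chromosome X at 119786504 to 119791630. RPL19, a protein of the exit region that also bridges to the small subunit, was the lowest of the 8 at −0.35 in the authors' deposited table. Of the others, RPL17 was at 0.32, RPL4 at 0.25, RPL23A at 0.19, RPL26 at 0.12, RPL35 at 0.11 and RPL31 at 0.0068 by these medians.

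The remaining 32 canonical large subunit genes had a median of 0.11, and 27 lay above 0. RPL7 at 0.43, RPL22 at 0.40, RPL35A at 0.32, RPL30 at 0.29 and RPL27A at 0.25 were highest in the authors' deposited table, each with 1 NM row. RPL22 is often mutated in colon tumours with microsatellite instability. RPL28, on chromosome 19 at 55385932 to 55403342, was lowest at −0.71, or 61.2% of control. By the authors' deposited table its 4 NM rows were at −0.92, −0.86, −0.56 and −0.44, so none of them reached 0. The other 4 below 0 were RPL38 at −0.13, RPL8 and RPL32 at −0.04 each and RPL27 at −0.02 by the medians from the authors' deposited table. RPL3, a protein that reaches toward the peptidyl transferase centre, was at 0.03, and RPL10, which joins the 60S subunit late in the cytoplasm, was at 0.07 by the same medians. Of the rest of this group, RPL6, RPL7A, RPL9, RPL10A, RPL13, RPL13A, RPL14, RPL15, RPL18, RPL21, RPL23, RPL24, RPL29, RPL34, RPL36, RPL36A, RPL37, RPL37A and RPL41 lay between 0.02 for RPL6 and 0.23 for RPL37 by the medians from the authors' deposited table.

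In the head of the 40S subunit, 13 of 14 genes lay above 0, with a median of 0.15. The exception was RPS16, whose C-terminal tail contacts the tRNA in the P site. It lies on chromosome 19 at 39433137 to 39435949, has 1 NM row and stood in the authors' deposited table at −0.92 or 53.0% of control, at percentile 4.87 of all coding genes. The other 13 ran from 0.0047 for RPS29 to 0.43 for RPS20. RPS20 and RPS10, both ubiquitylated when ribosomes collide, were at 0.43 and 0.30 by the medians from the authors' deposited table. RPS12 was at 0.32, RPS25 at 0.27, RPS28 at 0.18, RPS18 at 0.16, RPS15 at 0.15 and RPS3 at 0.12 by these medians. The value of RPS15 is the median of NM rows at −0.34 and 0.63, and lies near neither. The same holds for RPS10, with NM rows at −0.02 and 0.62. RPS27A, made as a fusion to ubiquitin, was at 0.08 by the same medians. RPS19, the gene most often mutated in Diamond-Blackfan anaemia, was at 0.06 in the authors' deposited table.

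In the body of the 40S subunit, 15 of 17 genes lay above 0, with a median of 0.16 and a range of −0.18 to 0.34. RPS23, a protein of the decoding centre, was highest at 0.34 in the authors' deposited table. RPS2, near the mRNA entry channel, was lowest at −0.18 there, followed by RPS21 at −0.09. RPS15A and RPS26 were at 0.30, RPS3A at 0.29, RPS7 at 0.23 and RPS6, the substrate of the S6 kinases, at 0.19 by the medians from the authors' deposited table. RPSA, also known as a laminin receptor, was at 0.01 by the median of NM rows at −0.11 and 0.14 there. RPS4X, RPS9, RPS13, RPS14 and RPS27 lay between 0.11 for RPS4X and 0.19 for RPS9 by the same medians, and RPS24, whose forms differed widely, is given with the transcripts.

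The paralogs lay close together. Taken from the authors' deposited table, their 5 values lay between 0.11 for RPL26L1 and 0.17 for RPS27L, a p53 target, each on 1 NM row. Readthrough genes share exons with RPL36A and RPS10. The transcript joining RPL36A to HNRNPH2 was at 0.39 and RPL36A itself at 0.10 in the authors' deposited table. The transcript joining RPS10 to NUDT3 was at −0.95, while the NM rows of RPS10 were at −0.02 and 0.62 there.

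Ribosomal proteins without an RPL or RPS symbol lay nearer to 0. FAU, whose product is cut to ubiquitin-like FUBI and the small subunit protein eS30, was at 0.09 and RACK1, a WD-repeat protein of the 40S head, at 0.04 in the authors' deposited table. The 18 genes in which variants cause Diamond-Blackfan anaemia, a failure of red cell production, had a median of 0.16. All of them are among the 84 genes. Of the 18, 17 (94.4%) lay above 0, against 85.7% of the 84. RPL35A was highest at 0.32 and RPL27 lowest at −0.02 by the same medians.

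Transcripts of the same ribosomal protein gene stood closer together than those of other coding genes. The median range between the NM rows of a gene was 0.31, against 0.96 for other coding genes. That range is still wider than the 0.16 between the quartiles of the 84 gene values. Of the 29 genes with several NM rows, 4 (13.8%) had rows more than 1 apart, against 48.6% of the 4156 other coding genes with several. Rows on both sides of 0 were found in 17 of the 29 (58.6%), against 66.0% of the other coding genes. The 4 genes were RPL17, RPS24, RPL31 and RPLP1.

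RPS24, on chromosome 10 at 78033863 to 78056806, is spliced in several forms that differ at the C terminus. The authors' deposited table puts the forms with 131 and 130 residues at 1.77 and 0.84, and those with 133 and 132 residues at −0.48 and −0.68. The median of these 4 rows, 0.18, lies near none of them. For RPL17 the authors' deposited table has 6 NM rows, the lowest at −1.41, the highest at 2.30 and the other 4 between 0.26 and 0.47, and all linked GENCODE transcripts encode 184 residues. RPL31 had rows at −0.81, 0.0068 and 0.34 in the authors' deposited table, for 128, 121 and 125 residues. The sources used here do not say how reads were divided among the transcripts of a gene.

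The value of a ribosomal protein gene went with the G+C content of its coding sequence, which was known for 75 of the 77 canonical genes (GENCODE 29). Spearman's rho across these genes was −0.45, as a description, since the genes share the same 3 libraries. It was −0.45 in 44 large subunit genes and −0.47 in 31 small subunit genes, −0.42 over the 72 genes without RPLP1, RPS16 and RPL28, and −0.18 across 11190 other coding genes. Over whole transcripts rho was −0.42. The 25 genes with the lowest coding G+C, 42.5% to 48.5%, had a median log2 fold change of 0.23, and 1 of them lay below 0. The next 25, up to 54.2%, had a median of 0.15 with 2 below 0. The 25 with the highest, 54.3% to 63.2%, had a median of 0.07 with 7 below 0. RPL39 was the gene with the lowest coding G+C of the 75, and RPLP1, RPS16 and RPL28 lay at 56.3%, 57.1% and 56.3%. Other coding genes in the same 3 ranges had medians of 0.05, −0.01 and −0.08, each below that of the ribosomal protein genes. The part of G+C content in the levels was not tested.

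**Figure D3:**
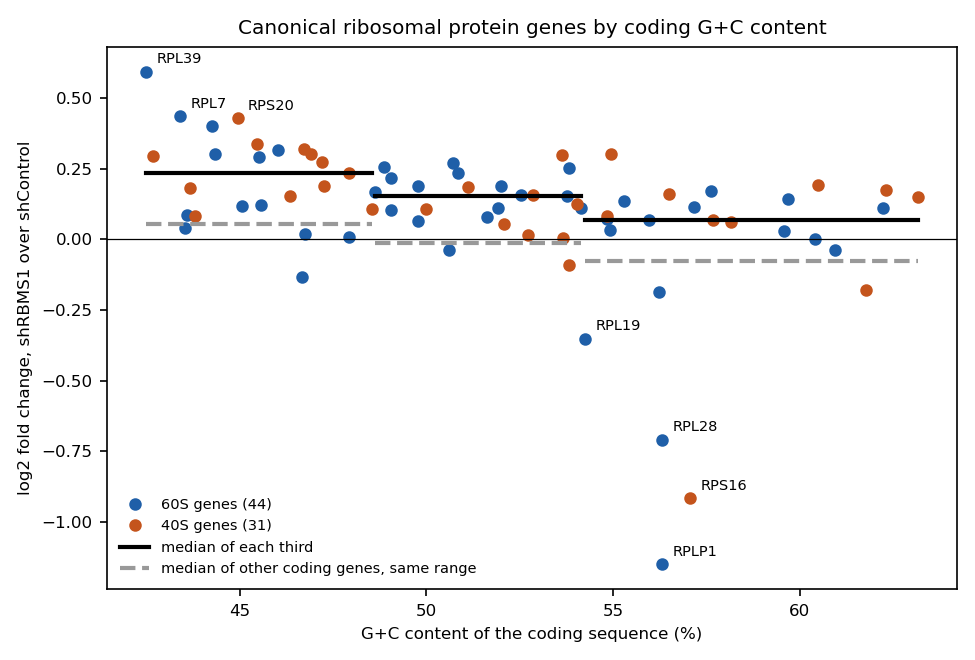
Log2 fold change (shRBMS1 over shControl, y axis) against the G+C content of the coding sequence (x axis, percent) for 44 large and 31 small subunit genes. Black bars are the medians of 25 genes each, 0.23, 0.15 and 0.07 from low to high, and dashed grey bars the medians of other coding genes in the same ranges, 0.05, −0.01 and −0.08.

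Other short transcripts lay less far above 0. Canonical ribosomal protein genes had a median coding length of 468 bases, against 1350 in other coding genes. The 1316 other coding genes whose transcripts were at most 1345 bases long had a median of 0.06 with 58.9% above 0. Length went little with the value inside the set, with a rho of −0.08 for coding length across the 75 genes.

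Ribosomal protein genes have many near-identical processed copies. RefSeq names 1988 pseudogenes after the 84 genes, with a median of 17 for each canonical gene and 137 for RPL21, the most of any. The sources used here do not say how reads were shared between a gene and its copies, so single values of this family are uncertain. The 42 genes with more pseudogenes than the median over all 84 had a median log2 fold change of 0.14, with 39 above 0. The other 42 had a median of 0.11, with 33 above 0. Across the 77 canonical genes, rho between the number of pseudogenes and the value was 0.19. RPLP1 has 13 such pseudogenes, RPS16 has 10 and RPL28 has 6, while RPL39 has 40 and RPL7 has 61. Other genes went against this order: RPL21 with 137 was at 0.04 and RPS2 with 55 at −0.18.

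Intronic small nucleolar RNAs, which guide modification of rRNA, lie in 28 of the 84 genes. The 28 host genes had a median of 0.15 with 25 above 0, and the other 56 a median of 0.12 with 47 above 0. On chromosome 19, where 12 of the genes lie, the median was 0.08 with 10 above 0, 0 of the 12 at or above 0.25, and 2 (16.7%), RPS16 and RPL28, at or below −0.25. Of the 813 other coding genes on chromosome 19, 21.5% were at or above 0.25 and 25.7% at or below −0.25. The 72 genes on other chromosomes had a median of 0.13.

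Other genes of translation were taken from lists of known factors, to be read against the 50.4% of all coding genes above 0, the 21.9% at or above 0.25 and the 25.7% at or below −0.25. Mitochondrial ribosomal proteins, which form a separate ribosome, had a median of 0.09 over 77 genes, with 56 (72.7%) above 0, 16 (20.8%) at or above 0.25 and 10 (13.0%) at or below −0.25. Of the elongation factors, 11 of 12 had a value, the median was 0.06 and 9 (81.8%) lay above 0. EEF1E1, a scaffold protein of the aminoacyl-tRNA synthetase complex, was highest at 1.01, from rows at 0.36 and 1.66 in the authors' deposited table. EEFSEC, the selenocysteine elongation factor, was lowest at −0.62 there. By the authors' deposited table EEF1A1, which carries aminoacyl-tRNA, was at 0.22 and EEF2, which moves the ribosome along, at 0.07.

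Initiation factors, 38 of 39 with a value, had a median of 0.10 with 24 (63.2%) above 0. At or above 0.25 were 6 (15.8%), and at or below −0.25 were 4 (10.5%), each a smaller share than among all coding genes (21.9% and 25.7%). EIF4B, a helicase cofactor with a TOP mRNA, was highest at 0.52, from rows at 0.27 and 0.77 in the authors' deposited table. EIF3L was lowest at −0.80, from rows at −1.85 and 0.25 there, and EIF1, which guards start codon choice, was at −0.74 on 1 row. All 5 termination and recycling factors with a value, of 6 on the list, lay above 0, from 0.10 for ABCE1 to 0.29 for HBS1L in the authors' deposited table.

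The 22 mRNAs listed as TOP mRNAs outside the RPL and RPS genes, some of which are also in the lists above, had a median of 0.12 with 17 above 0. EIF4B and EIF3L were at its ends, and PABPC1, the poly(A)-binding protein, was at −0.41 in the authors' deposited table. Chaperones and importers of ribosomal proteins, with the nascent chain factors NACA and BTF3, had a median of 0.22 over 16 genes, with 14 (87.5%) above 0, 8 of the 16 at or above 0.25 and 0 at or below −0.25. PDCD2L, a relative of the RPS2 chaperone PDCD2, was highest at 0.50 and the importin IPO9 lowest at −0.11 by the authors' deposited table. Regulators of TOP mRNA translation had a median of −0.11 over 15 genes, with 6 above 0. At or above 0.25 were 3 of the 15 and at or below −0.25 another 3, shares near the 21.9% and 25.7% of all coding genes. The lowest were LARP1 and EIF4EBP1, a translation repressor that mTOR switches off, both at −0.31 by the authors' deposited table. The highest was the mTOR inhibitor TSC2 at 0.48, from rows at −0.42 and 1.38 there. The others at or above 0.25 also had rows on both sides of 0. MLST8 was at 0.43 from rows of −9.66 to 2.66, and RPS6KB1 at 0.33 from rows at −0.23 and 0.88.

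**Figure D4:**
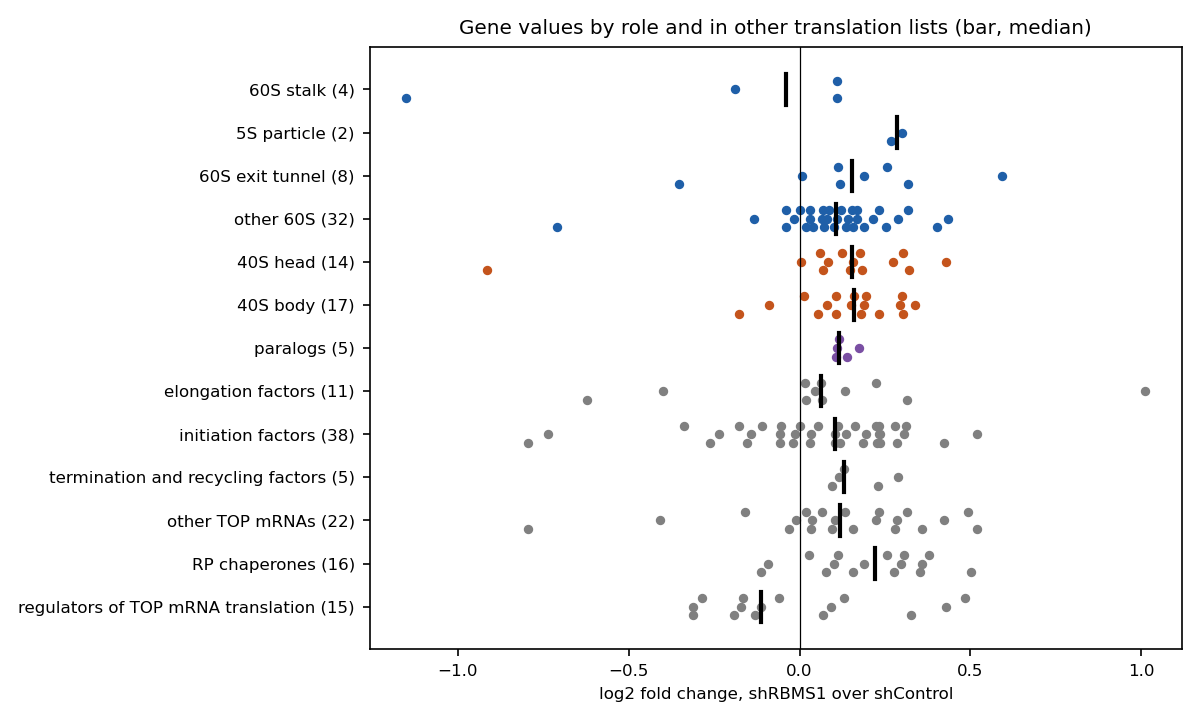
Log2 fold change (shRBMS1 over shControl) of ribosomal protein genes by role, in blue for the large and orange for the small subunit and violet for paralogs, and of other translation genes in grey, with the number of genes in brackets. Points are genes and black bars are medians, which run from −0.11 for regulators of TOP mRNA translation to 0.28 for the 2 genes of the 5S particle.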

How the data were processed

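Total RNA of SW480 cells was depleted of ribosomal RNA and sequenced, per the labels' protocols, in 1 shRBMS1 and 2 shControl libraries. STAR 2.5, Cufflinks, Cuffdiff and the build hg38 are listed, without roles, by the submitters' processing notes. The authors deposited 1 table of log2 fold changes for 20104 RefSeq transcripts, which is the only measurement used. Depth is unknown.

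Base 2 was taken from repeated values. Among values occurring at least 3 times, 20 pairs of values lay 1 apart within 1.5e-05, against 4 at ln 2 and 5 at log10 of 2.

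Symbols came from RefSeq genes of GRCh38.p14, the assembly of hg38, for 19818 rows. The other 286 were left out. GENCODE 29 gave coding sequences and small nucleolar RNAs, and pseudogenes were counted by symbol. Thresholds were 0.25 and 1 on the log2 scale. Members were named by role, with the lowest, the highest and those with rows over 1 apart given by transcript, and of each other list the lowest and highest gene. EEF1A1, EEF2, EIF1, PABPC1 and the other single values were chosen after the values were seen.

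The members and lists were chosen with earlier results of these data known. With 1 shRBMS1 library no test was run. The code for the medians was checked on simulated data. Python 3.11.15, pandas 2.3.3 and scipy 1.17.1 were used. A few single genes are counted in the totals but not reported here by name.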

Additional observations from a re-analysis of the deposited data

How the results depend on the processing

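Alternatives were other ways to take 1 value per gene, other member sets, centring and other thresholds, and 45 of the 59 resulting values stayed within 1.5 times the reported one with the same sign. Centring takes the same value from every gene, so it could not change the subunit difference. The count above 0 was 62 of the 84 genes with the NM row closest to 0. Over NM rows it was 97 of 131 (74.0%), against 50.7% of the 17868 NM rows that could be named. The median over ribosomal protein genes ranged from 0.109 to 0.157. The difference of large and small subunit medians was 0.0041, with the sign turned, for the NM row closest to 0, and −0.012 among genes with 1 NM row. The count at or above 0.25 was 32 over the 131 NM rows (24.4%), against 27.4% of the 17868 NM rows that could be named. Over genes it was 54 at a threshold of 0.1 and 1 at 0.5. The count at or below −0.25 was 9 with the NM row farthest from 0, 3 among genes with 1 NM row and 8 at 0.1. Over NM rows it was 17 (13.0%), against 29.3% of the 17868. At or beyond 1 were 0 with the NM row closest to 0, 3 with the farthest, 4 over NM rows and 0 among genes with 1 NM row, and 5 reached 0.58. Of the 17868 NM rows, 1388 were at or above 1 and 1417 at or below −1. Shares of all coding genes at 0.1, 0.5 and 0.58 are not given here. NM rows outnumber genes and genes with 1 NM row are fewer, so counts over either run over other totals. Values per library were not analysed here and shRBMS1 has 1 library, so no paired analysis was possible and no library could be left out.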

Other observations

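Transcribed pseudogenes of ribosomal protein genes, which the symbol choice left out, had 13 non-coding rows of 12 genes in the table. Their median was 0.11, near the 0.12 of the 131 NM rows of ribosomal protein genes. The quartiles lay wider apart, at −0.22 and 0.53 against −0.02 and 0.24 for those NM rows. The pseudogene rows ran from −2.54 to 1.38. By the authors' deposited table RPL19P12 was at −2.54, RPL13AP20 at −1.79 and the rows of RPL23AP7 at −0.76 and 1.38. RPL13AP5 was at 0.60, RPL23P8 at 0.58, RPL23AP53 at 0.53 and RPL23AP82 at 0.36 in the authors' deposited table. Beside RPL13AP5 and RPL13AP20, the parent RPL13A was at 0.17 in its NM row and at 0.59 in a non-coding row there. No level was analysed here, and the sources used here do not say whether reads of these copies were kept apart from those of their parents.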
